A study of Mus musculus with 2 samples.

Results

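The 31 genes described here encode enzymes of sterol and fatty acid synthesis together with regulators and carriers of the same pathway. They were chosen by symbol in the gene lists of both libraries, and all 31 of the 31 were present among the 19070 genes of the files. Subcutaneous tumours of the mouse line Lewis lung carcinoma (LLC) were profiled by single-cell RNA sequencing. Mice of the control library had received an IgG2a isotype control antibody. Those of the other library had received an antibody that blocks PD-1, a receptor that restrains T cells, and their tumours were taken 7 days later. The series text calls the control untreated, whereas the sample labels name the isotype antibody, and no time is given for the control. There was 1 library per group and how many mice each pooled is not stated, so no difference between libraries was tested. Intervals are exact 95% intervals that cover counting error only.

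Cells make cholesterol from acetyl-CoA through mevalonate, the isoprenoid farnesyl diphosphate, squalene and lanosterol, and make fatty acids from acetyl-CoA through malonyl-CoA. Many of these genes share control by the SREBP transcription factors, which are held in the endoplasmic reticulum by INSIG proteins when sterols are plentiful and are cut free and sent to the nucleus when sterols run low. SREBP-2, from Srebf2, is best known for sterol genes, and SREBP-1, from Srebf1, for fatty acid genes.

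Member promoters were searched for the sterol regulatory element and the E-box, letters that SREBPs are known to bind, and for the NF-Y and Sp1 boxes, bound by other factors. The RefSeq promoter table (GRCm38.p6, 250 bases before to 50 bases after each start) matched 24 members by symbol. On either strand, the NF-Y box CCAAT was found in 21 of 24 members, or 87.5%, against 41.1% of the 27025 genes in the table. The Sp1 box GGGCGG was found in 20 members, or 83.3%, against 38.2% of all genes. The E-box CACGTG was found in 4 members, or 16.7%, against 8.09%. The sterol regulatory element TCACNCCAC was found only in Hmgcs1 among the 24 members, or 4.17%, against 1.44% of all genes. The form CACCCCAC, which overlaps it, was found in the same single member against 3.30% of all genes. Shares were not corrected for base composition, a match is no shown site, and no match says only that these letters are not in this window.

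Below are the windows of a sterol and a fatty acid member, shown because their levels differed unequally between tumour cell states. Each runs 250 bases up to the RefSeq start in the gene's own direction. Capitals mark TCACNCCAC and CCAAT, the latter read as ATTGG on the other strand.
Hmgcs1 (chr13:119690101-119690350, plus strand): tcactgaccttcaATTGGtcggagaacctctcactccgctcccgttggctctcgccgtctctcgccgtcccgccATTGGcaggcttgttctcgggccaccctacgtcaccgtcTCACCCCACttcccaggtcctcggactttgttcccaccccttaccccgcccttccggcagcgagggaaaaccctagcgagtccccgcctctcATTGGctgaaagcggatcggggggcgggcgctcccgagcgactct
Fasn (chr11:120824548-120824797, minus strand): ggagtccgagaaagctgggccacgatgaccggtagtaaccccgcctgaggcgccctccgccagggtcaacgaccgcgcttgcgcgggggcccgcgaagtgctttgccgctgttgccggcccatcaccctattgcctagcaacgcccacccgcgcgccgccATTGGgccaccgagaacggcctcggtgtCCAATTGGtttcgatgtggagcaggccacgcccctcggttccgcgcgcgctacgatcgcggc
In the Hmgcs1 window the sterol regulatory element, spelled TCACCCCAC, begins at base -137 from the start, between NF-Y boxes at -176 and -45. The Fasn window holds NF-Y boxes at -90, -62 and -59, the last 2 of which overlap, and no match to the sterol regulatory element.

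The libraries held 8441 control and 9423 anti-PD-1 barcodes with 113268618 and 115407230 unique molecular identifiers (UMIs, counted RNA molecules), and 107 barcode sequences occurred in both. After barcodes with few genes or a high mitochondrial share were left out, 8395 and 9422 remained. Cells were classed by marker UMIs. Tumour cells, by Hmga2, Igf2bp1, Igf2bp2 and Wnt7b, numbered 3164 in control and 4715 in anti-PD-1. Macrophages, by C1q genes, Mrc1, Mertk and Adgre1, numbered 416 and 614. Monocytes, by Ccr2, Chil3 and Plac8, numbered 186 and 225, and cells with both the macrophage and the monocyte genes, called intermediate, numbered 149 and 225. No class took in 53.4% of the kept barcodes in control against 38.7% in the other library. The classes are marker gates, not clusters: Igf2bp3, Krt8 and Krt18, a further check of carcinoma identity, summed to only 7.93 and 4.38 counts per 1000000 UMIs (CPM) in tumour cells. In monocytes they summed to 49.3 CPM in control against 1.49 in anti-PD-1. Krt8 and Krt18 gave 12 and 15 UMIs in control monocytes and 0 in anti-PD-1 monocytes. The part of these keratin counts in the monocyte results was not tested. The 4 tumour markers stood in macrophages at 14.4% of their tumour cell level in control against 10.0% in anti-PD-1, and in monocytes at 9.47% and 10.8%, so part of the counts of these small cells may be tumour RNA. Both classes were gated to hold few UMIs of these same markers, so the shares may understate the tumour RNA in them. Median UMIs per cell were 17484.5 and 14073 in tumour cells, 3065.5 and 3786.5 in macrophages and 2506 and 2269 in monocytes. Globin genes of red cells were lower in anti-PD-1 in every class, from 497 to 51.2 CPM in tumour cells and from 502 to 52.0 CPM in monocytes. Their part in the results was not tested.

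Over all kept barcodes, cell mixture included, 23 of 31 members had a log2 ratio of anti-PD-1 over control above 0, with a median of 0.15 against -0.03 for all genes. None was past 1.5-fold, where 2.91% of the 12727 measured genes were higher and 10.1% lower. In such sums fewer cells of a type and less RNA per cell cannot be told apart.

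In tumour cells the members as a group stood slightly higher in the anti-PD-1 library, and none moved by as much as 1.5-fold. Their summed level was 4020 CPM in control and 4370 CPM in anti-PD-1, a log2 ratio of 0.12 (interval 0.11 to 0.13). All 31 had at least 100 UMIs over both libraries, the limit for calling a gene measured in a class. The count past 1.5-fold was 0 higher and 0 lower, where 4.42% of the 11668 measured genes were higher and 6.65% lower. The median log2 ratio was 0.14 against 0.00 for all measured genes, 19 members had intervals above 0, 8 below and 4 holding 0. The direction turned when every tumour cell with a UMI of the cycling genes Mki67 or Top2a was left out. The median was then -0.054 over 27 measured members, with 3 lower past 1.5-fold. It did not turn when only the cells high for cycling genes, a state compared further below, were left out. In the remaining 2488 control and 3815 anti-PD-1 cells the median was 0.16 over 31 measured members, with 0 past 1.5-fold. Why these settings differ was not tested.

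The 6 mevalonate pathway genes had a median log2 ratio of 0.00 in tumour cells. Hmgcs1, which makes the HMG-CoA that enters the pathway, stood at 144 CPM in control against 133 in anti-PD-1 (log2 -0.12, interval -0.16 to -0.08). Idi1, the isomerase that balances the isoprenoid building blocks, was at 30.4 and 26.4 CPM (log2 -0.21), whereas Pmvk, a mevalonate pathway kinase, was at 40.3 and 47.4 CPM (log2 0.23). Fdps, which makes farnesyl diphosphate, was at 191 and 205 CPM (log2 0.10). Mvk and Mvd had intervals that held 0. These genes therefore moved in both directions, each by a small step.

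Of the genes that make and close squalene, Fdft1, the squalene synthase, was at 115 CPM in control against 98.6 in anti-PD-1 (log2 -0.22, interval -0.27 to -0.18). Sqle, the squalene epoxidase, was at 168 and 190 CPM (log2 0.18), and Lss, the lanosterol synthase, at 70.4 and 73.8 CPM (log2 0.07). Of the 8 genes that turn lanosterol into cholesterol, 7 were above 0 and 1 below. The exception was Hsd17b7, a 3-ketosteroid reductase, at 54.2 and 40.6 CPM, the lowest log2 ratio of the members (-0.42, interval -0.48 to -0.35). Cyp51, the lanosterol demethylase, was at 182 and 203 CPM (log2 0.16), and Dhcr7, which reduces 7-dehydrocholesterol, at 44.7 and 52.9 CPM (log2 0.24).

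The regulators included the highest ratio. Srebf1 was at 87.2 CPM in control against 123 in anti-PD-1 tumour cells (log2 0.50, interval 0.45 to 0.54), and Srebf2 at 430 and 551 CPM (log2 0.36, interval 0.34 to 0.38). Insig1, which retains the SREBPs, was at 192 and 187 CPM (log2 -0.04). Stard4, a sterol carrier, was at 75.5 and 64.3 CPM (log2 -0.23), and Tmem97, a sterol-regulated membrane protein, at 148 and 172 CPM (log2 0.21). So both SREBP genes were higher while Insig1 differed little.

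Among the 9 fatty acid genes, 7 were above 0. Fasn, the fatty acid synthase, was at 522 CPM in control against 509 in anti-PD-1 (log2 -0.04), and Acly, which supplies acetyl-CoA from citrate, at 253 and 240 CPM (log2 -0.08). Genes that lengthen and desaturate the chain were higher: Elovl6, an elongase, was at 108 and 144 CPM (log2 0.41) and Fads2, the delta-6 desaturase, at 101 and 139 CPM (log2 0.46, interval 0.42 to 0.50). Scd1 and Scd2, desaturases of saturated chains, had log2 ratios of 0.15 and 0.21. Acss2, an acetyl-CoA synthetase, was at 5.35 and 7.14 CPM (log2 0.42, interval 0.23 to 0.60).

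**Figure D1:**
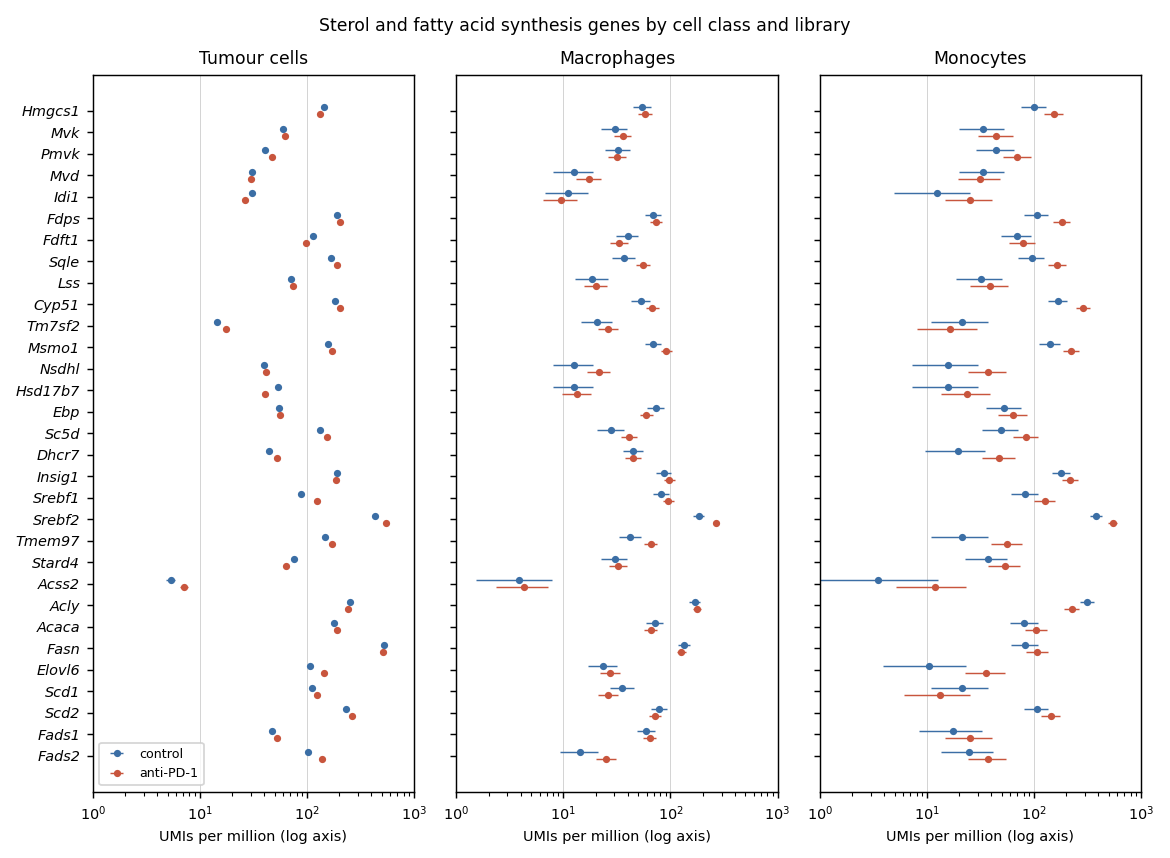
Level of each member in CPM (log axis) in tumour cells, macrophages and monocytes, blue for control and red for anti-PD-1, with exact 95% Poisson intervals of the counts. Most members lie further left in macrophages than in tumour cells, and Srebf2 is to the right in anti-PD-1 in all 3 panels.

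In macrophages, 26 members were measured and 3 were higher past 1.5-fold in anti-PD-1, with 0 lower; of the 7759 measured genes 3.26% were higher and 7.0% lower. Sqle was at 36.6 CPM in control against 56.0 in anti-PD-1 (log2 0.61, interval 0.20 to 1.04). Tmem97 was at 42.1 and 65.2 CPM (log2 0.63, interval 0.25 to 1.03), and Fads2 at 14.2 and 25.1 CPM (log2 0.82, interval 0.17 to 1.52). None of these intervals lay wholly past 1.5-fold. Fads2 rests on 26 and 82 UMIs. At its control level in both libraries it would not have been measured, so its call follows partly from the UMI limit. Srebf2 was at 183 and 267 CPM (log2 0.54, interval 0.36 to 0.73), while Fasn was at 134 and 126 CPM (log2 -0.08, interval -0.32 to 0.15). The median over measured members was 0.12 against -0.10 for all measured genes. With each cell weighted equally the count was 5 higher and 1 lower, with UMIs thinned to 2000 per cell it was 1 of 9 measured, and with tumour RNA subtracted it was 8.

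In monocytes many of the measured members, most of them sterol synthesis enzymes, were higher in anti-PD-1. Of 12 measured members, 6 were higher past 1.5-fold and 0 lower, where 5.58% of the 2939 measured genes were higher and 5.07% lower. They were Hmgcs1, at 100.4 CPM in control against 153 in anti-PD-1 (log2 0.61, interval 0.13 to 1.10), Fdps at 106 and 183 CPM (log2 0.79, interval 0.33 to 1.26), and Sqle at 95.1 and 163 CPM (log2 0.78, interval 0.30 to 1.28). Cyp51 was at 167 and 288 CPM (log2 0.78, interval 0.42 to 1.15), Msmo1, a C4-methylsterol oxidase, at 141 and 223 CPM (log2 0.66, interval 0.26 to 1.07), and Srebf1 at 82.8 and 126 CPM (log2 0.61, interval 0.08 to 1.16). All but Srebf1 are sterol synthesis enzymes, and each interval lay above 0 but included values under 1.5-fold. Srebf2 was at 380 and 542 CPM (log2 0.51, interval 0.26 to 0.76). Acly went the other way, from 312 CPM in control to 226 in anti-PD-1 (log2 -0.47, interval -0.79 to -0.14).

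The summed level of the members in monocytes was 2366 CPM in control against 3272 in anti-PD-1 (log2 0.47, interval 0.37 to 0.57), from 1344 against 2203 UMIs. The median over the 12 measured members was 0.56 against 0.02 for all measured genes, and the other 19 members had too few UMIs. In intermediate cells 5 of 11 measured members were higher past 1.5-fold and 0 lower (6.04% and 4.75% of all measured genes), namely Hmgcs1, Sqle, Cyp51, Msmo1 and Srebf2, with a median of 0.56. Hmgcs1 rests there on 33 and 69 UMIs and Sqle on 31 and 72. At their control level in both libraries neither would have been measured, so these calls follow partly from the UMI limit. Other genes moved in the same monocytes: Ifit1, Ifit3 and Rsad2, induced by interferon, summed to 933 CPM in control against 2365 in anti-PD-1, and Ankrd37, Bnip3, Egln3 and Ndrg1, induced by low oxygen, to 623 and 255 CPM. Their part in the result was not tested. With the marker minimum doubled, 2 of 6 measured members were higher, and with cells thinned to 2000 UMIs 3 of 5.

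**Figure D2:**
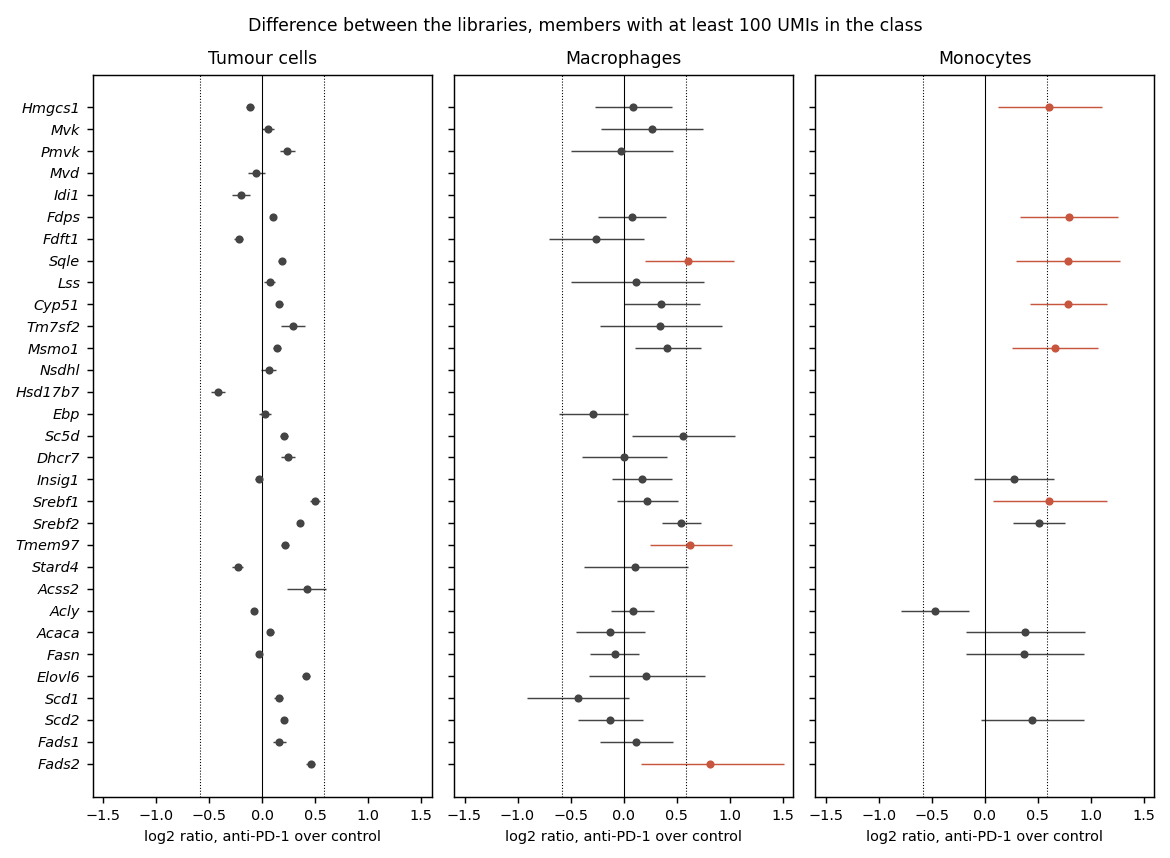
Log2 ratio of anti-PD-1 over control for each member with at least 100 UMIs in the class, with exact 95% intervals. Dotted lines mark 1.5-fold and red points the members past it: 0 in tumour cells, 3 in macrophages and 6 in monocytes.

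The classes themselves differed in the level of these genes, in both libraries. In macrophages 17 of 31 members were past 2-fold lower than in tumour cells in both libraries and 0 were past 2-fold higher, where 23.6% of the 11781 measured genes were lower and 12.9% higher. A gene counts as measured here by its UMIs over both classes. The medians over members were -1.40 in control and -1.19 in anti-PD-1, against -0.45 and -0.60 for all measured genes, and relative to those medians 8 members were past 2-fold lower. Fads2 in macrophages stood at 14.0% of its tumour cell level in control against 18.0% in anti-PD-1, Elovl6 at 21.8% and 18.9%, and Fasn at 25.6% and 24.8%. The tumour markers stood there at 14.4% and 10.0%, so the control level of Fads2 cannot be told apart from tumour RNA. Among sterol genes Sc5d, a sterol desaturase, was at 20.9% and 26.7%, Sqle at 21.8% and 29.5%, and Fdps at 36.1% and 35.6%. The other members past the fold were Hmgcs1, Idi1, Fdft1, Lss, Cyp51, Hsd17b7, Srebf2, Tmem97, Acaca, Scd1 and Scd2. Idi1 (20 and 31 UMIs) and Hsd17b7 (23 and 44) did not reach 100 UMIs in macrophages.

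A few members stood at or above their tumour cell level in macrophages. Fads1, the delta-5 desaturase, was at 59.1 CPM in control macrophages against 47.2 in tumour cells, and at 64.3 against 52.7 CPM in anti-PD-1. Tm7sf2, a sterol reductase, was at 143% and 149% of its tumour cell level, and Ebp, a sterol isomerase, at 132% and 106%. Fads1 and Fads2 act in the same pathway, and their ratios of macrophages over tumour cells were 0.32 and -2.83 (log2) in control. At that level the Fads2 counts of control macrophages cannot be told apart from tumour RNA.

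Monocytes lay closer to tumour cells. In both libraries 6 members were past 2-fold lower in monocytes (Tmem97, Fasn, Elovl6, Scd1, Fads1 and Fads2) and 0 higher, against 26.6% and 15.9% of the 11707 measured genes, which does not set the members apart. Of these 6, 5 belong to fatty acid synthesis. Fasn was at 15.8% of its tumour cell level in control monocytes against 21.0% in anti-PD-1. Scd1 was at 19.0% and 10.8%, from only 12 and 9 monocyte UMIs. By contrast Srebf2 was at 88.5% and 98.4%, and Cyp51 at 92.0% and 142%. The tumour markers stood in monocytes at 9.47% and 10.8%. So the anti-PD-1 level of Scd1, and the control level of Elovl6 at 9.78%, cannot be told apart from tumour RNA. Since monocytes were gated on these markers, levels somewhat above these shares may hold tumour RNA as well.

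Against macrophages, 5 of 28 measured members were past 2-fold higher in monocytes in both libraries and 1 lower, where 3.45% of the 8320 measured genes were higher and 4.56% lower. Cyp51 stood at 315% of its macrophage level in control against 424% in anti-PD-1, and Sqle at 260% and 292%. Srebf2 stood at 208% and 203%, Insig1 at 207% and 221%, and Msmo1 at 204% and 243%. The lower member was Fads1, at 29.8% and 39.3%, from only 10 and 17 monocyte UMIs. By medians, cells with both marker sets lay between. Over macrophages their median log2 ratio was 0.23 in control and 0.27 in anti-PD-1 (27 measured members), against -0.09 and 0.02 for all genes. For monocytes over these cells it was 0.36 and 0.47 (17 measured members), against 0.04 and -0.01. In both comparisons 0 members were past 2-fold in both libraries. That is near the shares of all genes, 1.13% higher and 1.99% lower in the first and 0.932% and 1.03% in the second.

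Within tumour cells, the members were compared between cells high for a set of state genes, namely the top 20% of tumour cells of both libraries with at least 3 state UMIs, and the other tumour cells. In cells high for Gria3, Gpnmb and Dmpk, genes of a state found in earlier results of these data, 19 of 31 members were lower past 1.5-fold in both libraries and 0 higher, where 2.49% of the 11668 measured genes were lower and 3.44% higher. Taken singly, 19 members were lower in control (5.08% of genes) and 20 in anti-PD-1 (5.3%), and 0 were higher (7.47% and 5.63%). These cells were 10.5% of control and 26.4% of anti-PD-1 tumour cells. The members' median log2 ratio of high over other cells was -0.72 in control and -0.75 in anti-PD-1, against 0.02 and 0.00 for all genes. All 6 mevalonate genes, the 3 squalene genes, 5 of 8 later sterol genes, 3 of 5 regulators and carriers and 2 of 9 fatty acid genes were among the 19.

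Fdps stood at 77.8 CPM in high and 201 in other control cells, and at 107 and 235 CPM in anti-PD-1 (log2 -1.37 and -1.14). Hmgcs1 was at 65.5 and 151 CPM in control and 67.7 and 153 in anti-PD-1 (log2 -1.20 and -1.18). Fads2 was at 48.5 and 106 CPM in control and 74.0 and 159 in anti-PD-1 (log2 -1.13 and -1.10). These 3 members and Idi1 were at less than 50% of the level of the other tumour cells in both libraries. Fasn moved less, at 429 and 531 CPM in control and 428 and 534 in anti-PD-1 (log2 -0.31 and -0.32), as did Srebf2 (log2 -0.44 and -0.32). Sc5d was within -0.06 and -0.10, and Srebf1 went the other way, at 0.21 and 0.19. Acss2 was at 0.04 and 0.40, and Tm7sf2 at 0.21 and -0.08.

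Cells high for the hypoxia genes Ankrd37, Bnip3, Egln3 and Ndrg1 also had lower levels, by more in control. The share of tumour cells high for them was 27.9% in control against 12.9% in anti-PD-1. In control 19 members were lower past 1.5-fold and in anti-PD-1 1 member, where 1.86% of measured genes were lower in each library, and 0 members were higher (3.15% and 5.32%). The medians were -0.65 and -0.30, against -0.01 and -0.02 for all genes, and 30 of 31 members in control and 29 in anti-PD-1 were below 0. Only Idi1 was lower past the fold in both libraries, where 0.334% of genes were, and 0 members were higher in both (2.01%). Cyp51 was at 108 and 208 CPM in high and other control cells (log2 -0.95) and at 151 and 210 CPM in anti-PD-1 (log2 -0.47). Dhcr7 was at 25.1 and 51.6 CPM in control (log2 -1.04) and at 38.2 and 55.0 in anti-PD-1 (log2 -0.52). The exceptions were Srebf1 in both libraries and Hsd17b7 in anti-PD-1, at 42.2 and 40.4 CPM (log2 0.06, interval -0.08 to 0.21). Srebf1 was at 97.1 and 83.6 CPM in control (log2 0.22) and 124 and 123 CPM in anti-PD-1 (log2 0.01). The hypoxia genes themselves summed to 759 CPM in high cells in control against 896 in anti-PD-1. The difference between the libraries was not tested. With cells thinned to 5000 UMIs before the states were set, the medians were -0.46 and -0.16.

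**Figure D3:**
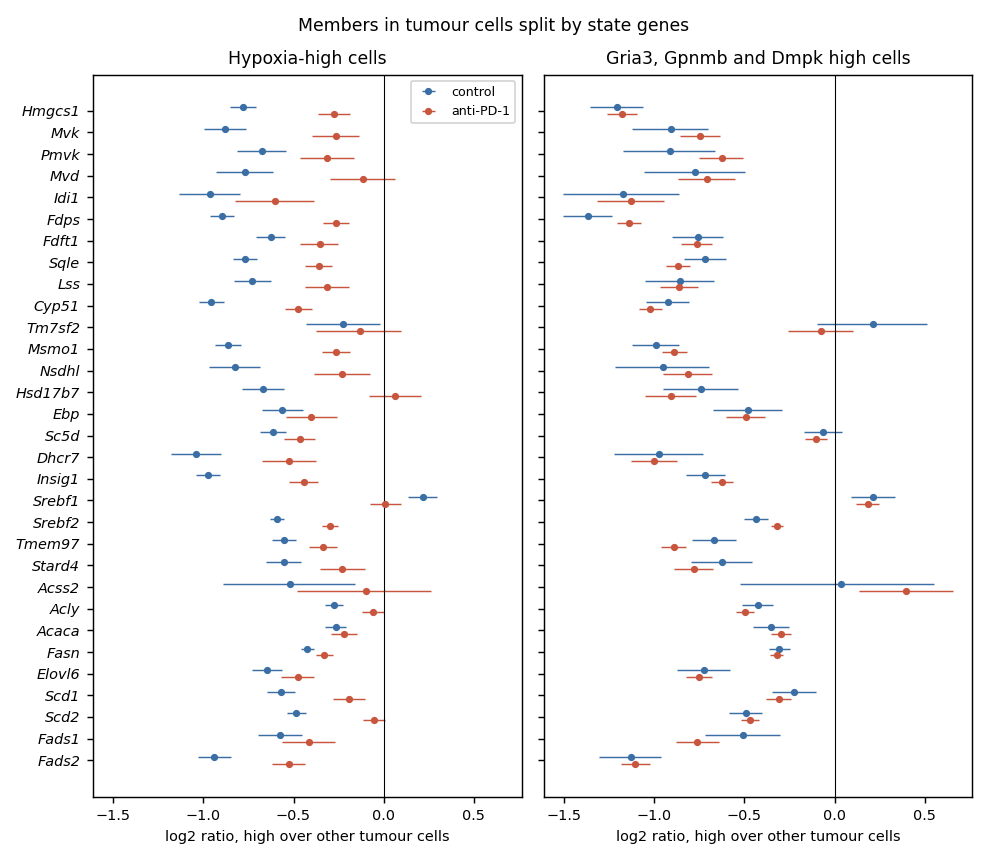
Log2 ratio of each member between tumour cells high for the state genes and the other tumour cells, blue for control and red for anti-PD-1, with exact 95% intervals. Most points lie left of 0, the libraries overlap in the right panel (medians -0.72 and -0.75), and control lies further left in the hypoxia panel (medians -0.65 and -0.30).

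The states overlapped in 3.76% of control and 2.52% of anti-PD-1 tumour cells. Tumour cells high for neither set held 4523 CPM of the members in control and 4875 in anti-PD-1. Cells high for hypoxia genes alone held 2984 and 3812 CPM, those high for Gria3, Gpnmb and Dmpk alone 3008 and 3200, and those high for both 2337 and 3022. The macrophage markers, a sign of macrophage RNA, ranged from 231 to 313 CPM over these 8 sets. Each tumour cell was chosen to hold under 800 CPM of them, so every set had to lie below that limit. The markers were highest in control cells high for both, the set with the lowest level of the members. Between libraries the median log2 ratio of the members was 0.11 in cells high for neither, 0.45 in cells high for hypoxia alone, 0.05 in those high for Gria3, Gpnmb and Dmpk alone and 0.30 in those high for both. For all genes these medians were 0.01, 0.00, -0.02 and 0.00. All 31 members were measured in the first 3 sets and 24 in cells high for both. Without hypoxia-high cells the median over all tumour cells was 0.01 in place of 0.14, and without cells high for Gria3, Gpnmb and Dmpk it was 0.22, with 1 member higher past 1.5-fold, Fads2 at 0.59. The other states moved the members less: medians of high over other cells were 0.06 and 0.07 for cycling cells, -0.14 and -0.22 for interferon, 0.16 and 0.14 for Dkk2 and Col8a1, and -0.13 and 0.14 for Il24 and Msln.

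Other genes of the pathway were counted from lists chosen alongside the members. Of the 4 genes that handle SREBPs, 0 were past 1.5-fold in both libraries in cells high for Gria3, Gpnmb and Dmpk, with medians of 0.15 and 0.11. Of 6 genes of mevalonate side branches 1 was lower, Acat2, the thiolase that starts the pathway. Of 20 further fatty acid genes 19 were measured and 0 were past the fold, with medians of -0.22 and -0.25, and of 8 oxidation genes 0, with medians of -0.08 and 0.00. Of 16 genes of sterol uptake, storage and export 2 were higher and 1 lower, Lpl, a lipoprotein lipase. Between libraries in macrophages, 1 of these 16 genes was higher and 2 were lower past 1.5-fold, with a median of -0.28. Ch25h, which makes 25-hydroxycholesterol, was at 131 CPM in control against 272 in anti-PD-1 (log2 1.05, interval 0.85 to 1.26), and Nr1h3, the sterol-sensing receptor LXR alpha, at 49.8 and 23.6 CPM (log2 -1.08, interval -1.54 to -0.62). Lpl was at 273 and 178 CPM (log2 -0.61, interval -0.79 to -0.44). In monocytes 9 of the 16 were measured, with 1 higher and 1 lower. Abca1, a cholesterol exporter, was at 255 and 125 CPM (log2 -1.03) and Abcg1, another, at 81.0 and 153 CPM (log2 0.92).

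The members also varied together from cell to cell. Over tumour cells thinned to 5000 UMIs, 3117 control and 4531 anti-PD-1 cells (47 and 184 shallower cells left out), the median Pearson r between pairs of members was 0.11 and 0.09, and 94.0% and 94.4% of pairs were above 0. The median r of members with other genes was 0.00 in both, over 9768 and 9316 genes whose mean counts lay within the range of the members. Pairs among those other genes were not computed. These are descriptions over cells of 1 library that share depth, and r was higher where counts were less sparse: at 10000 UMIs the medians were 0.20 and 0.15. The summed UMIs of the members per cell had a mean of 19.5 and SD of 11.7 in control, where counting alone gives an SD of 4.42, and a mean of 21.6 and SD of 11.4 in anti-PD-1, where it gives 4.64. The lowest 10% of cells held at most 8 such UMIs (control) or 10 (anti-PD-1), and the highest 10% at least 36 or 38.

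**Figure D4:**
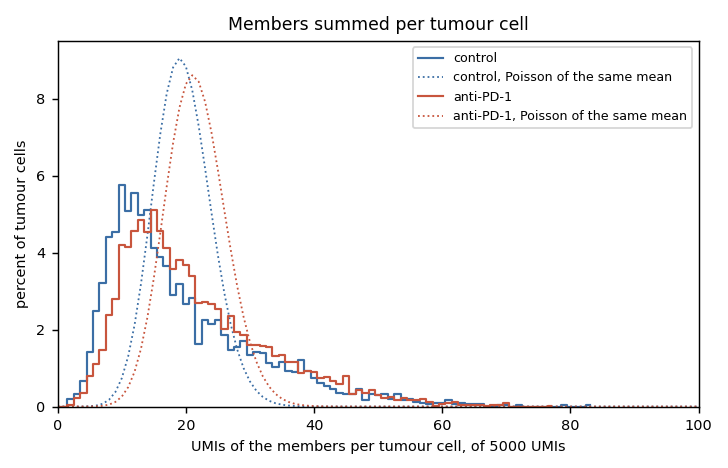
Share of tumour cells (percent) by the number of member UMIs among 5000 UMIs, blue for control and red for anti-PD-1, with dotted Poisson curves of the same mean. Both libraries are wider than their curves, with medians of 16 and 19 UMIs.

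Single members followed the sum of the others to different degrees. The Pearson r with that sum was 0.56 in control and 0.53 in anti-PD-1 for Cyp51, 0.54 and 0.51 for Msmo1, 0.54 and 0.48 for Fdps, 0.54 and 0.45 for Hmgcs1 and 0.50 and 0.44 for Srebf2. Among fatty acid genes it was 0.43 and 0.44 for Scd2, 0.41 and 0.43 for Fads2 and 0.31 and 0.26 for Fasn. It was near 0 for Srebf1 (-0.01 and 0.02), Tm7sf2 (0.03 and 0.07) and Acss2 (0.10 and 0.01). Tm7sf2 and Acss2 had few UMIs, at a mean of 0.07 and 0.03 per thinned control cell, whereas Srebf1 had 0.46.

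**Figure D5:**
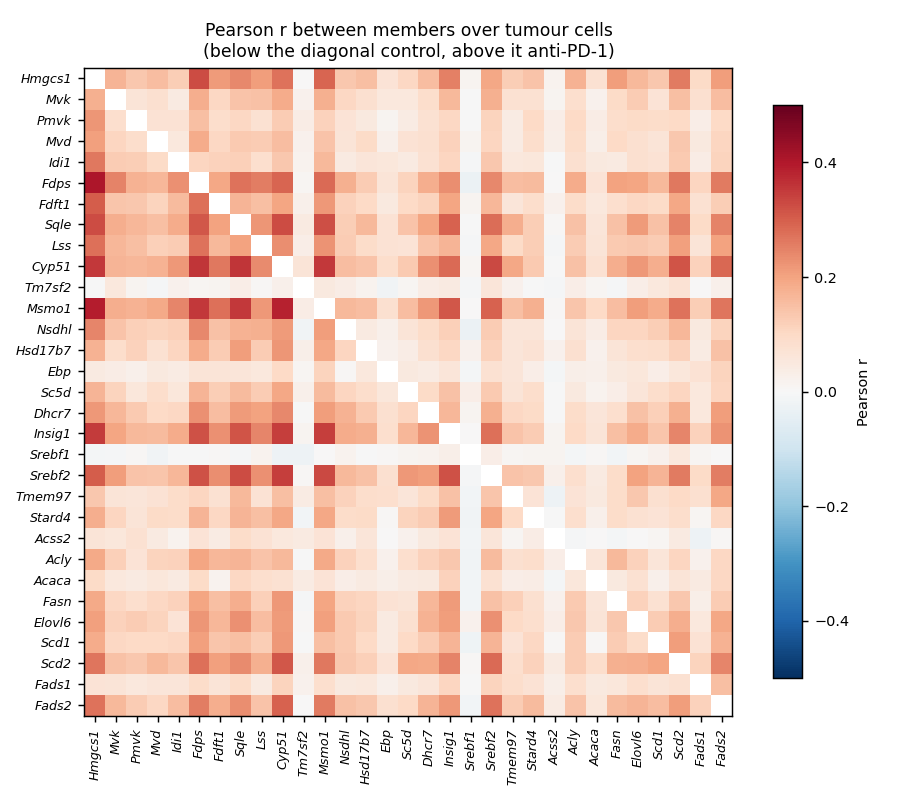
Pearson r between members over tumour cells thinned to 5000 UMIs, control below the diagonal and anti-PD-1 above it. Red marks r above 0; Hmgcs1 with Fdps in control (r 0.40) and Cyp51 with Msmo1 in anti-PD-1 (r 0.35) are the highest pairs, and the rows of Srebf1, Tm7sf2 and Acss2 are nearly white.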

How the data were processed

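The authors deposited raw UMI counts by gene and barcode, 1 matrix per library, without normalization. The labels' protocols name both a Flex kit, which uses gene probes, and a 3' protocol, and which was used could not be settled. The submitters' processing notes give Cell Ranger 7.0.1 and mm10, whereas the matrices carry version 9.0.1, per the file headers. Capture can differ between genes under either, so levels were not compared between genes.

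A barcode was kept if it had 300 genes or more and a mitochondrial share no higher than 20%. Tumour cells needed 5 UMIs and 500 CPM of the tumour markers with at most 800 CPM of macrophage markers. Macrophages needed 5 UMIs and 3200 CPM, and monocytes 3 UMIs and 800 CPM, of their markers. These cutoffs were set after the files were seen. No doublet caller was run. Tumour cells also had to hold under 200 CPM of the leukocyte gene Ptprc. Macrophages, monocytes and intermediate cells had to hold under 400 CPM, or at most 1 UMI, of the tumour markers. Barcodes past these limits entered no class, whereas lower levels of the other type's markers were let in. UMIs were summed per class and library and scaled to counts per 1000000 UMIs (CPM). A gene was measured at 100 UMIs over both libraries. Calls were past 1.5-fold between libraries or states, or past 2-fold between classes in both libraries. Intervals are exact Poisson intervals for levels and exact conditional (Clopper-Pearson) intervals for ratios. Code used Python 3.11.15, numpy 2.4.6 and scipy 1.17.1, and was tested on simulated data. Named members are those past these folds, and otherwise 1 or more of each role. The members and lists were chosen with earlier results of these data known. Members named beyond that rule were chosen after their values were seen.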

Additional observations from a re-analysis of the deposited data

Results flagged for a closer look

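Hmgcs1 moved in opposite directions in tumour cells and monocytes, with both counting intervals away from 0. The log2 ratio of anti-PD-1 over control was -0.12 in tumour cells and 0.61 in monocytes. The difference between the classes was not tested, since each rests on 1 library per group.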

How the results depend on the processing

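No paired analysis was possible because there was 1 library per group. For the same reason no replicate could be left out. Of the alternatives to the reported counts and medians, 161 values stayed close, 30 moved and 2 changed sign. Leaving out every tumour cell with a UMI of Mki67 or Top2a gave a tumour median of -0.054, with 27 members measured. Of these 3 were lower past 1.5-fold. The cells left in that setting held few of the tumour cell counts. Leaving out only the cells high for cycling genes gave a tumour median of 0.16 over 31 measured members, with 0 past 1.5-fold. Cycling cells in control had a median of -0.0059 with the top 10 percent as high. The tumour median was 0.22 without cells high for Gria3, Gpnmb and Dmpk, with 1 member higher, 0.10 without cells high for Il24 and Msln, and 0.013 without hypoxia-high cells. Members higher in macrophages numbered 1 with cells thinned to 2000 UMIs, 5 with cells weighted equally (and 1 lower), 5 when scaled to the median gene, 0 with a minimum of 500 UMIs, 0 at a fold of 2 and 8 with tumour RNA subtracted. Members higher in monocytes numbered 2 with doubled marker minimums, 3 when thinned, 0 with a minimum of 500 UMIs (1 member measured) and 0 at a fold of 2. Between classes, 8 members were lower in macrophages than in tumour cells when scaled to the median gene, and 11 in monocytes than in tumour cells at a fold of 1.5. Against macrophages, monocytes had 11 higher and 2 lower at a fold of 1.5, 10 higher with tumour RNA subtracted, and 0 lower when thinned or with a minimum of 500 UMIs. Thinning to 5000 UMIs before states were set gave medians of -0.46 and -0.16 for hypoxia in control and anti-PD-1, -0.11 for interferon in anti-PD-1 and -0.53 for Gria3, Gpnmb and Dmpk in control. The top 10 percent gave -0.86 for hypoxia in control. At 10000 UMIs the median pairwise r was 0.20 in control and 0.15 in anti-PD-1. No member called past 1.5-fold between libraries in macrophages or monocytes changed sign under the alternatives in which it was measured; single members in intermediate cells and tumour cell states were not recomputed. Settings on shared barcodes, macrophage markers in tumour cells, tumour RNA, hypoxia-high cells and states were chosen after seeing the data. The causes of these shifts were not tested. Monocyte values rest on 186 and 225 cells, where most members were too shallow to be measured.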
